A study of Gallus gallus with 858 samples.

Results

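Of the 24356 Ensembl genes counted in this series, 5 that encode secreted proteins or proteins of the secretory route are described here across single cells of the chick ear region. They are AGR2 (ENSGALG00000010825), ATP6V1G3 (ENSGALG00000002207), SPIK5 (ENSGALG00000031496), CPN1 (ENSGALG00000007090) and C1QTNF12 (ENSGALG00000001857). The 5 genes were selected on earlier results of these same data, from genes that were higher in cells with VGLL2 reads than in cells with SOHO-1 reads, so that contrast is given as a description and carries no test. All 5 also stand in the epibranchial list that the study drew from separate bulk samples. In the experiment, head-fold chick embryos received a Pax2E1-EGFP construct by electroporation, in which an enhancer of Pax2 drives EGFP in otic-epibranchial progenitors (OEPs) and in the placodes that form from them. Heads were taken at 3 stages (ss8, 8 to 9 somites; ss11, 11 to 12 somites; ss15, 14 to 15 somites), EGFP+ cells were sorted singly into plates, and each cell gave 1 SmartSeq2 library. No uninjected or treated group was included. No embryo is named for any cell and each stage came from its own sort, so a stage counts as 1 sample, no test between groups can be made, and stage, sort and sequencing run cannot be told apart.

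AGR2 is a protein disulphide isomerase of the endoplasmic reticulum (ER), required for mucin production in the mouse intestine. ATP6V1G3 is an isoform of the G subunit of the vacuolar proton pump, which acidifies compartments of the secretory and endocytic route, and in human and mouse it is best known from kidney. The other members are exported proteins: SPIK5 is a Kazal-type inhibitor of serine proteases, annotated as ovoinhibitor in the chick RefSeq table, CPN1 is the catalytic subunit of carboxypeptidase N, a human plasma enzyme that trims basic residues from peptides such as kinins, and C1QTNF12 is a C1q and TNF-related protein known as adipolin in mouse and human. Otic and epibranchial placodes arise side by side from the OEP territory. The otic placode forms the inner ear, and the epibranchial placodes give rise to sensory neurons of cranial ganglia. SOHO-1 is a homeobox gene of the otic placode and VGLL2, a vestigial-like cofactor of TEAD factors, marks the epibranchial territory.

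The members were followed in 781 of 850 cells, those with at least 500000 counted reads and 1000 detected genes. The cells below these limits numbered 7, 22 and 40 in order of stage. The kept cells held 507328 to 7343424 reads, with stage medians of 7223 genes at ss8, 4844 at ss11 and 4736.5 at ss15 after every cell was thinned to 500000 reads. At ss8, 8 pairs of libraries from neighbouring wells were near-identical (correlation 0.996 to 0.998, where the next highest pair had 0.880), and each pair was joined and counted as 1 cell. Cells were called VGLL2+ with at least 10 CPM (counts scaled to a total of 1000000 per cell) of VGLL2 and under 20 CPM of SOHO-1, and SOHO-1+ with at least 20 CPM of SOHO-1 and under 10 CPM of VGLL2. This gave 3 VGLL2+ and 8 SOHO-1+ cells at ss8, 24 and 55 at ss11, and 51 and 67 at ss15, with both genes past their limits in 0, 7 and 11 cells. Few VGLL2+ cells of ss11 and ss15 lay near the VGLL2 limit. VGLL2 began at 23.5 CPM in VGLL2+ cells of ss11 and 16.9 CPM at ss15 and was at most 8.53 CPM in cells positive for neither gene. The 3 VGLL2+ cells of ss8 began at 14.9 CPM, and the cells of ss15 with both genes at 12.5 CPM. Some cells lay near the 20 CPM limit of SOHO-1. SOHO-1 began at 27.3, 24.3 and 25.4 CPM in SOHO-1+ cells in order of stage. At ss11 SOHO-1 reached 14.9 CPM in VGLL2+ cells and 16.7 CPM in cells positive for neither gene. Markers fitted the labels in part. SOHO-1+ cells were higher in the otic genes SOX8, SOX10, LMX1A and DACT2 (log2 differences of -1.59 to -5.39 for VGLL2+ against SOHO-1+ cells). These otic genes did not set SOHO-1+ cells apart from the neural crest cells described below. In SOHO-1+ cells they summed to 1187.5 CPM at ss11 and 1427.8 CPM at ss15. In neural crest cells the sums were 1979.1 and 1952.8 CPM. By their crest markers, 4 of 55 SOHO-1+ cells at ss11 and 5 of 67 at ss15 were themselves neural crest cells. Of VGLL2+ cells, 0 of 24 at ss11 and 1 of 51 at ss15 were. VGLL2+ cells were higher in the epibranchial genes ISL1, PDLIM1, NELL1, UPK1B and PRDM1 (1.14 to 3.05). TFAP2E passed 2-fold at ss11 alone (2.03, and 0.82 at ss15), and KRT18 did not separate the groups (-0.33 at ss11 and 0.11 at ss15).

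Between VGLL2+ and SOHO-1+ cells, the secretory members AGR2 and ATP6V1G3 were at least 2-fold higher in VGLL2+ cells at both stages, whereas SPIK5 and CPN1 were at least 2-fold higher at ss15 but not at ss11 and C1QTNF12 at ss11 but not at ss15. The difference between the stages was not tested. Levels are CPM of the pooled reads of a group's cells, and folds are log2 differences of CPM plus 1. At ss11, 3 of the 5 members were at least 2-fold higher in VGLL2+ cells, as were 7.75% of the 6964 genes measured in that comparison. At ss15, 4 of the 5 were, against 6.07% of 6700 genes. A gene counts as measured with at least 20 CPM in 1 group and 10 CPM or more in at least 20% of its cells, which ATP6V1G3 did not reach at ss11. As the members were chosen on this contrast, nothing is read from these counts, and only the sizes and the cells behind them are described below.

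**Figure D1:**
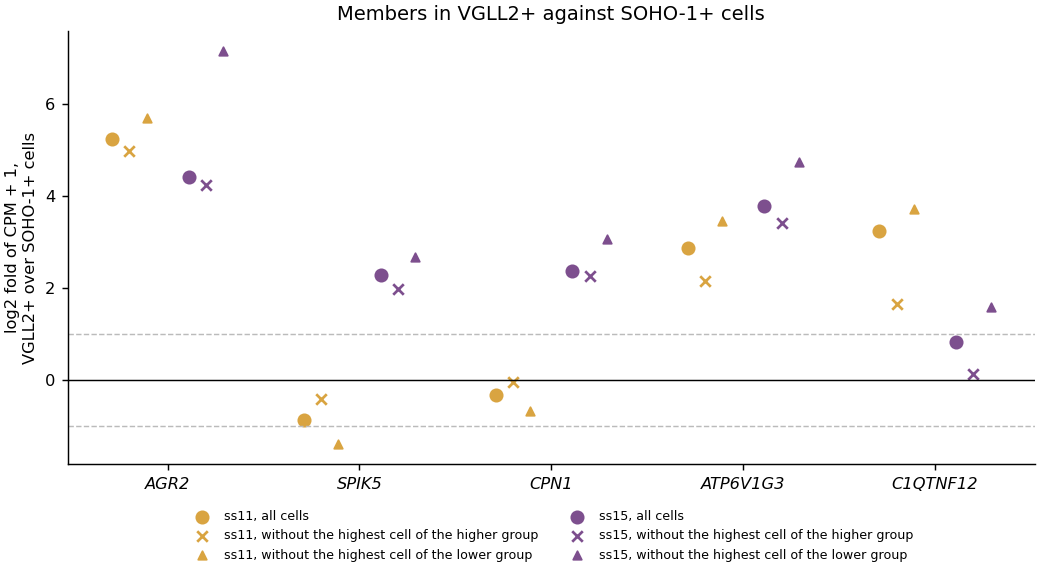
log2 fold of CPM + 1 of each member in VGLL2+ over SOHO-1+ cells at ss11 (24 and 55 cells) and ss15 (51 and 67 cells), for all cells (circles) and without the single highest cell of the higher group (crosses) or of the lower group (triangles); dashed lines mark 2-fold. AGR2 stood at 5.25 and 4.42 and ATP6V1G3 at 2.88 and 3.79, SPIK5 and CPN1 stood below 0 at ss11 and at 2.30 and 2.38 at ss15, and C1QTNF12 at ss15 was 0.83 with and 0.14 without 1 cell.

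AGR2 had the largest log2 fold of CPM plus 1 among the 5 at both stages, although at ss15 the plain ratio of ATP6V1G3 was larger (27.5 against 23.5). At ss11 its CPM in VGLL2+ cells ran from 0 to 504 with a median of 36.4, and 14 of 24 cells reached 10 CPM (58.3%, 95% exact binomial interval 36.6 to 77.9%). In SOHO-1+ cells the values ran from 0 to 35.02 with a median of 0, and 5 of 55 cells reached 10 CPM (9.09%, 3.02 to 19.95%). The summed levels were 118.4 and 2.14 CPM (exact Poisson intervals 114.05 to 122.8 and 1.77 to 2.55), a log2 fold of 5.25 that placed it at rank 3 of the 6964 measured genes, VGLL2 itself being at rank 1. These intervals, like all others given here, cover counting error only, and reads without molecular identifiers are not independent molecules.

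At ss15 AGR2 ran from 0 to 1191 CPM in VGLL2+ cells with a median of 53.99, and 30 of 51 cells were past 10 CPM (58.8%, 44.2 to 72.4%). Only 3 of 67 SOHO-1+ cells were (4.48%, 0.933 to 12.5%). The share of AGR2-positive VGLL2+ cells was thus the same to within 1 percentage point at both stages, while the median of the positive cells was 114.9 CPM at ss11 and 284.8 CPM at ss15. Summed levels were 222.8 CPM in VGLL2+ and 9.49 CPM in SOHO-1+ cells, a log2 fold of 4.42. One SOHO-1+ cell at 569 CPM held 94.2% of that group's AGR2 reads, and without it the log2 fold was 7.16. That cell carried fewer than 10 GFP reads per 1000000 counted reads. Among cells with at least 10 such reads, SOHO-1+ cells held 0.549 CPM of AGR2 and the log2 fold was 7.23.

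ATP6V1G3, the proton-pump subunit, was found in few cells and at ss15 mostly in VGLL2+ ones. At ss11, 3 of 24 VGLL2+ cells reached 10 CPM and the highest stood at 95.9 CPM, against 1 of 55 SOHO-1+ cells at 29.5 CPM. Summed levels were 9.999 and 0.498 CPM, a log2 fold of 2.88 that rested on 240 and 28 reads. At ss15, 16 of 51 VGLL2+ cells were past 10 CPM (31.4%, 19.1 to 45.9%) with values from 14.7 to 204.9 CPM among them. A single SOHO-1+ cell at 81.02 CPM held every ATP6V1G3 read of that group of 67. The ss15 sums of 25.9 and 0.940 CPM gave a log2 fold of 3.79, or 3.42 without the highest VGLL2+ cell. Of the 24 ATP6V1G3-positive cells at ss15, 16 were VGLL2+ (66.7%, 44.7 to 84.4%), but of the 15 at ss11 only 3 were, and 10 fell among cells with no class assigned.

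SPIK5, the Kazal inhibitor, was present in both groups and stood higher in SOHO-1+ cells at ss11 and in VGLL2+ cells at ss15. At ss11 it ran from 0 to 4352 CPM in VGLL2+ cells and from 0 to 8162 CPM in SOHO-1+ cells, with medians of 0, and the shares of positive cells were alike (8 of 24, 33.3%, 15.6 to 55.3%, and 18 of 55, 32.7%, 20.7 to 46.7%). Summed levels were 367 and 662 CPM, a log2 fold of -0.85. Few cells carried most reads: 3 SOHO-1+ cells held at least 50% of that group's SPIK5 and 2 VGLL2+ cells did so in theirs. At ss15, 30 of 51 VGLL2+ cells were positive (58.8%, 44.2 to 72.4%), with a median over all 51 of 150.1 CPM and a maximum of 8950 CPM. In SOHO-1+ cells 18 of 67 were positive (26.9%, 16.8 to 39.1%), with a maximum of 2685 CPM. The summed levels were now 1040.2 and 211.1 CPM, a log2 fold of 2.30, and 1.997 without the highest VGLL2+ cell. At ss15 SPIK5 was thus 1.501 log2 units higher than at ss11 in VGLL2+ cells, while the difference in SOHO-1+ cells was -1.64. The ss11 value depended on which cells entered: among the 11 VGLL2+ and 30 SOHO-1+ cells with at least 1000000 reads and 2000 genes it was -4.49, from 35.8 against 824 CPM, and among cells with at least 10 GFP reads per 1000000 it was -1.13. Without the highest SOHO-1+ cell it was -0.39.

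CPN1, the carboxypeptidase subunit, had the same direction as SPIK5 at each stage. At ss11 CPN1 ran up to 196.1 CPM in VGLL2+ cells, 6 of 24 of which were positive (9.77 to 46.7%), and up to 332 CPM in SOHO-1+ cells, 21 of 55 of which were positive (38.2%, 25.4 to 52.3%). Sums of 29.7 and 37.4 CPM gave a log2 fold of -0.32, which was -0.03 without the highest SOHO-1+ cell and -1.92 among cells with at least 1000000 reads and 2000 genes. At ss15 CPN1 was the member found in the most VGLL2+ cells, 37 of 51 (72.5%, 58.3 to 84.1%), with a median of 148.2 and a maximum of 1152 CPM. SOHO-1+ cells were positive in 14 of 67 cases (20.9%, 11.9 to 32.6%), though their highest cell, at 1298 CPM, lay above every VGLL2+ cell and held 39.8% of the group's reads. The sums were 213.1 and 40.1 CPM, a log2 fold of 2.38 that became 3.07 without that cell. Within VGLL2+ cells CPN1 was 2.80 log2 units higher at ss15 than at ss11, and within SOHO-1+ cells the difference was 0.10.

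C1QTNF12 reads in VGLL2+ cells came largely from single cells. Of its VGLL2+ reads at ss11, 70.2% came from 1 cell at 449 CPM, and 6 of 24 cells were past 10 CPM (9.77 to 46.7%), against 3 of 55 SOHO-1+ cells (5.45%, 1.14 to 15.1%). Sums of 28.95 and 2.17 CPM gave a log2 fold of 3.24, or 1.66 without that cell. At ss15 the positive shares were 12 of 51 (23.5%, 12.8 to 37.5%) and 7 of 67 (10.4%, 4.30 to 20.3%), with overlapping intervals and highest cells at 651 and 584 CPM. The sums of 36.7 and 20.3 CPM differed by a log2 fold of 0.83, which was 0.14 without the highest VGLL2+ cell and 1.59 without the highest SOHO-1+ cell. With at least 1000000 reads and 2000 genes per cell it was 2.21.

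**Figure D2:**
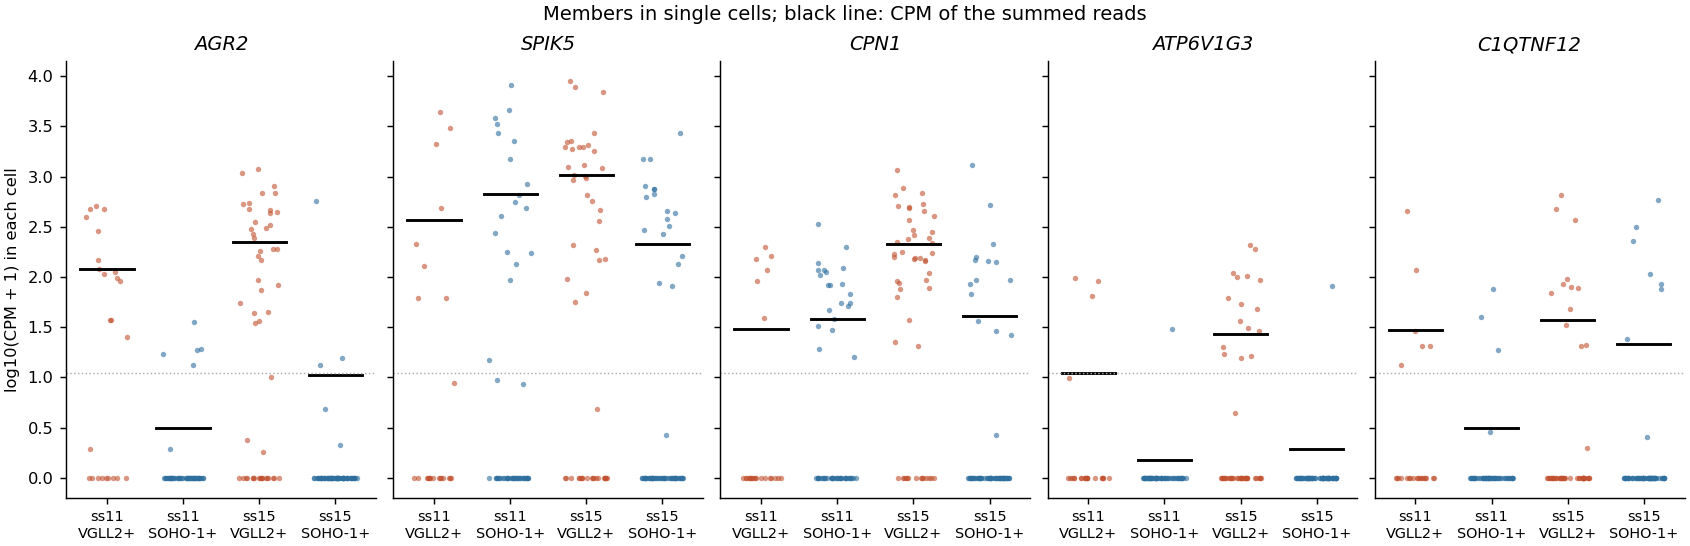
log10(CPM + 1) of each member in single cells: VGLL2+ (24 and 51) and SOHO-1+ (55 and 67) cells at ss11 and ss15, each point 1 cell, black lines the CPM of the summed reads and the dotted line 10 CPM. AGR2 lies mostly at 0 in SOHO-1+ cells and ATP6V1G3 mostly at 0 in all 4 groups, while SPIK5 exceeds 2000 CPM in single cells of all 4 groups.

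The groups differed in more than the members. VGLL2+ cells held 5319.5 genes at the median and SOHO-1+ cells 5208 at ss11, and 4834 and 4094 at ss15, at 500000 reads each. Neural crest markers, of which 6 were listed, summed to 23.7 CPM in VGLL2+ and 291 CPM in SOHO-1+ cells at ss11. Single cells there ran from 0 to 299 and from 0 to 4183 CPM. The sums at ss15 were 54.1 and 178.5 CPM (0 to 1254 and 0 to 1420 CPM per cell). PAX7 and FOXD3 were at 0 in VGLL2+ cells of ss11. Epidermal markers, 5 of 6 with an identifier and carried mainly by KRT19, summed to 797 and 443 CPM at ss11 (120 to 1708 and 0 to 1195 per cell) and to 684 and 451 CPM at ss15. Their part in the differences of the members was not tested. The mesoderm markers TWIST1 and SIM1, and FOXA1 for endoderm, stayed at 1.15 CPM or less in the summed reads of VGLL2+ cells. Of 6 endoderm markers listed, FOXA1 was the only 1 with an identifier, and the others were not followed. Single VGLL2+ cells of ss15 reached 65.9 CPM of FOXA1 and 23.4 CPM of the mesoderm markers. In SOHO-1+ cells the mesoderm markers summed to 10.4 CPM at ss11 and 10.98 CPM at ss15, with single cells up to 265.8 and 597 CPM, and FOXA1 to at most 0.130 CPM.

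Cells positive for both VGLL2 and SOHO-1 were few. Of the 7 at ss11, 4 had AGR2 past 10 CPM (57.1%, 18.41 to 90.1%) and none had ATP6V1G3. Of the 11 at ss15, 2 had AGR2 (18.2%, 2.28 to 51.8%), with a highest value of 31.3 CPM, while 6 had SPIK5 and 6 had CPN1 (54.5%, 23.4 to 83.3% for each). The summed AGR2 level in these cells was 38.1 CPM at ss11 and 5.14 CPM at ss15, and that of SPIK5 was 30.6 and 586 CPM.

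By stage and over all kept cells, every member stood higher at ss15 than at ss8. AGR2 summed to 23.9 CPM at ss8, 31.8 at ss11 and 59.1 at ss15, although the positive cells numbered 61, 47 and 46 (22.3, 17.9 and 18.70% of the stage). SPIK5 went from 7.03 CPM at ss8, in 20 cells, to 286.4 CPM at ss11 in 51 cells and 469 CPM at ss15 in 71 cells. CPN1 was already present in 48.7% of ss8 cells, but at a median of 44.1 CPM among them, and its sums were 32.2, 26.2 and 78.8 CPM with 59 and 79 positive cells at the later stages. The other members were low throughout, ATP6V1G3 at 1.23, 5.62 and 6.98 CPM in 7, 15 and 24 cells, and C1QTNF12 at 3.04, 11.6 and 19.97 CPM in 14, 23 and 31 cells.

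From ss8 to ss11, 3 of the 5 members were at least 2-fold higher (SPIK5 by 5.16, C1QTNF12 by 1.64 and ATP6V1G3 by 1.57 log2 units), as were 6.36% of 7450 measured genes, whose median was -0.23. From ss11 to ss15 only CPN1 was, by 1.55, against 0.388% of 6695 genes. From ss8 to ss15 all 5 were, from 1.27 for AGR2 and CPN1 to 5.87 for SPIK5, against 7.56% of 7431 genes with a median of -0.24. None of the 3 called from ss8 to ss11 passed the measured filter, so that percentage is no background for them, and the 2 measured members, AGR2 (0.40) and CPN1 (-0.29), lay within 2-fold. CPN1 and SPIK5 were measured from ss11 to ss15, and AGR2, CPN1 and SPIK5 from ss8 to ss15. Within VGLL2+ cells, 3 members were at least 2-fold higher at ss15 than at ss11 (CPN1 2.80, SPIK5 1.501 and ATP6V1G3 1.29, or 0.92 without its highest cell), against 7.46% of 6861 genes, and AGR2 differed by 0.91 and C1QTNF12 by 0.33. VGLL2 itself differed by 0.04 in the same cells.

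The stage differences depended on which cells entered. Cells with at least 2 of the placodal markers DLX3, DLX6 and GATA3 made up 24.9% of ss8 cells, 68 in number, and they included 17.6% of VGLL2+ cells at ss15 and 33.3% at ss11. Of SOHO-1+ cells they included 44.8% at ss15 and 43.6% at ss11. For VGLL2+ against SOHO-1+ cells, DLX3 differed by -1.35 log2 units at ss11 and -1.46 at ss15. DLX6 differed by -1.35 and -2.34, and GATA3 by 1.15 and -0.89. The later placodal cells thus left out most VGLL2+ cells, and the part of this in the placodal levels was not tested. Among placodal cells AGR2 ran the other way, from 68.98 CPM at ss8 to 31.3 at ss11 and 22.97 at ss15, and the log2 fold from ss8 to ss15 was -1.55. SPIK5 stood at 17.5, 661 and 409 CPM in placodal cells, again lowest at ss8. CPN1 held 59.98, 48.2 and 77.4 CPM there, and C1QTNF12 held 9.13, 9.40 and 48.3 CPM. The log2 folds of CPN1 and ATP6V1G3 from ss8 to ss15 were 0.36 and 0.84 in placodal cells, both under 2-fold. The 3 ss8 plates gave AGR2 levels of 25.3, 23.7 and 23.2 CPM and CPN1 levels of 30.1, 37.5 and 29.3 CPM. SPIK5 spread more widely, at 4.04, 13.5 and 3.85 CPM, and 1 cell held 90.4% of its reads on plate 3.

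At ss8, before most cells expressed VGLL2 or SOHO-1, AGR2 and CPN1 were found in most placodal cells. Of the 58 placodal cells positive for neither gene, 39 had AGR2 (67.2%, 53.7 to 78.99%) and 50 had CPN1 (86.2%, 74.6 to 93.9%). AGR2 was also past 10 CPM in 5 of the 8 SOHO-1+ cells and CPN1 in all 8, with summed levels of 70.03 and 48.2 CPM. Neural crest cells, those with at least 4 of 6 crest markers and positive for neither gene, give the share in another cell type of the same plates. Of these, 1 of 50 had AGR2 at ss8 (0.0506 to 10.6%) and 1 of 23 at ss15, while 0 of 38 did at ss11, for which the exact upper limit is 9.25%. Cells with at least 4 crest markers, whatever their VGLL2 and SOHO-1, numbered 51 at ss8, 42 at ss11 and 30 at ss15. Median depth was 1304860 reads in the 50 crest cells and 1221530 in the 58 placodal cells. CPN1 was not absent from crest cells, with 14 of 50 positive at ss8 (16.2 to 42.5%) and in later crest cells 4 of 38 and 3 of 23. Nor was CPN1 confined to placodal cells at ss8. It was past 10 CPM in 58 cells with no class assigned (37.7% of that class, 29.99 to 45.8%). These were more cells than the 50 placodal ones, although a smaller share of their class. AGR2 was past 10 CPM in 14 cells with no class assigned (9.09%, 5.06 to 14.8%). Thinning every cell to 500000 reads left 39 AGR2-positive and 50 CPN1-positive placodal cells at ss8.

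Placodal cells positive for neither gene at the later stages were 22 and 14, and AGR2 was past 10 CPM in 7 (31.8%, 13.9 to 54.9%) and 2 (14.3%, 1.78 to 42.8%) of them. The other members were found in these cells too. CPN1 was past 10 CPM in 6 at each stage, SPIK5 in 6 and 3, C1QTNF12 in 4 and 2, and ATP6V1G3 in 1 and 2. AGR2 in SOHO-1+ cells was found in 5 of 8 cells at ss8 (62.5%, 24.5 to 91.5%), beside the 9.09% and 4.48% given above for ss11 and ss15, a difference that was not tested. The AGR2-positive cells were spread over different classes at each stage. At ss8, 39 of 61 were placodal cells positive for neither gene, at ss11 14 of 47 were VGLL2+ and 17 had no class assigned, and at ss15 30 of 46 were VGLL2+ (65.2%, 49.8 to 78.6%).

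**Figure D3:**
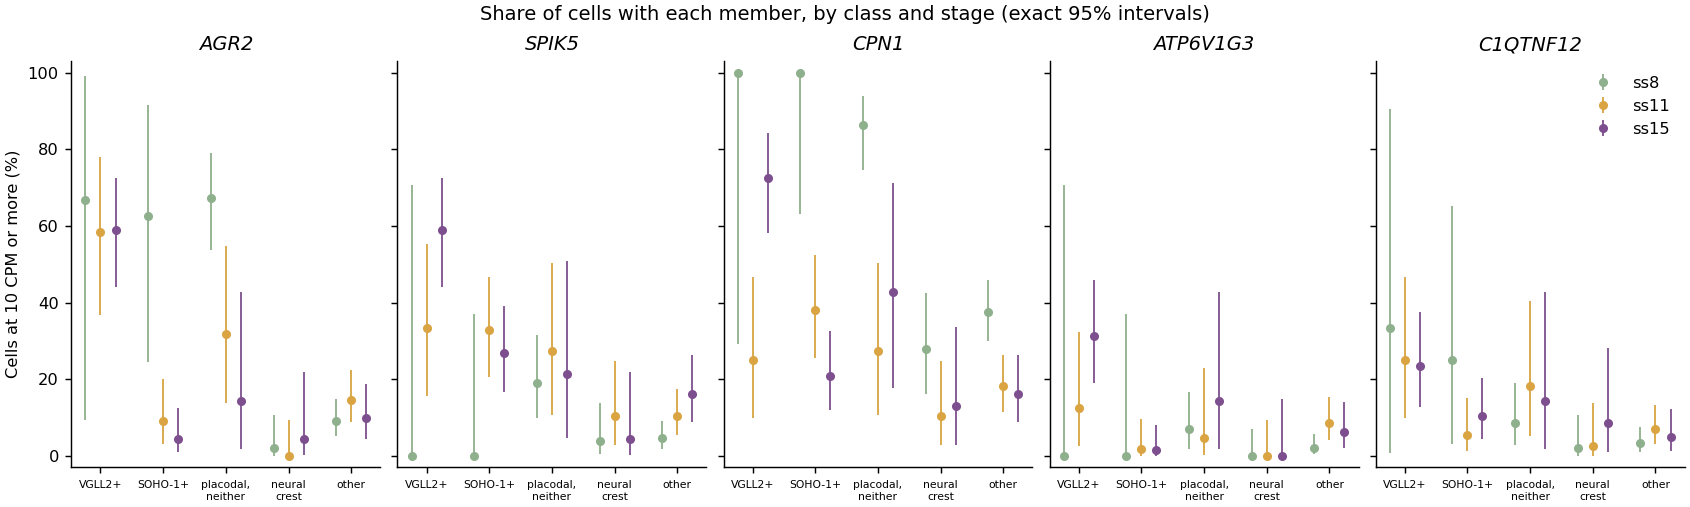
Share of cells (%) with each member at 10 CPM or more, by class (VGLL2+, SOHO-1+ and, among cells positive for neither, placodal, neural crest and other cells) and stage, with exact binomial 95% intervals. In VGLL2+ cells AGR2 stayed near 58% at ss11 and ss15 while CPN1 went from 6 of 24 cells to 72.5%, and in SOHO-1+ cells AGR2 went from 62.5% of 8 cells at ss8 to 4.48% of 67 at ss15.

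The members were detected together in a larger share of ss15 cells than of earlier ones. At least 3 of the 5 were past 10 CPM in 17 ss8 cells (6.23%, 3.67 to 9.78%), 17 ss11 cells (6.49%, 3.82 to 10.2%) and 40 ss15 cells (16.3%, 11.9 to 21.5%). Of those 40 cells, 28 were VGLL2+, which is 28 of 51 VGLL2+ cells (54.9%, 40.3 to 68.9%), against 2 of 67 SOHO-1+ cells (2.99%, 0.364 to 10.4%). At ss11 the corresponding numbers were 4 of 24 and 5 of 55. As the members were chosen on the contrast of VGLL2+ with SOHO-1+ cells, nothing is read from these counts. VGLL2+ cells made up 9.16% of kept cells at ss11 and 20.7% at ss15, and their part in the larger share at ss15 was not tested. All 5 members were found in 2 cells, both VGLL2+ and both of ss15, and 6 of the 51 VGLL2+ cells at ss15 had no member past 10 CPM.

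Among the 10 pairs of members, Spearman's rho of CPM over all kept cells of ss15 ran from 0.13 to 0.52 with a median of 0.30, and over those of ss11 from -0.07 to 0.30 with a median of 0.15. Within VGLL2+ cells the median rho was -0.02 at ss11 and 0.13 at ss15, and within SOHO-1+ cells it was 0.21 and -0.03. The members were chosen on the contrast of these groups, so the values over all cells are not independent of that choice. Cells of a stage share a sort and plates, so these are descriptions and no p is given. Over all kept cells of ss15, AGR2 and CPN1 had the highest value (0.52). At that stage 38 of 46 AGR2-positive cells also had CPN1 (82.6%, 68.6 to 92.2%), against 20.5% of the AGR2-negative ones. At ss8, 50 of 61 AGR2-positive cells had CPN1 (81.97%, 70.02 to 90.6%), against 39.2% of the AGR2-negative ones (rho 0.33). At ss11 only 18 of 47 AGR2-positive cells did (38.3%, 24.5 to 53.6%), against 19.1% of the AGR2-negative ones (rho 0.13).

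SPIK5 and CPN1, both exported, had rho of 0.30 at ss11 and 0.52 at ss15, with 25 and 46 cells positive for both. Within the 51 VGLL2+ cells of ss15 their rho was 0.61, the highest of the 10 pairs, and 26 of the 30 SPIK5-positive cells had CPN1. Within the 24 VGLL2+ cells of ss11 it was 0.53, with 5 cells positive for both. Within SOHO-1+ cells it was 0.27 at ss11 (55 cells, 10 positive for both) and 0.08 at ss15 (67 cells, 4 positive for both). AGR2 and ATP6V1G3, both of the secretory route, had rho of 0.27 at ss11 and 0.45 at ss15, when 16 of 24 ATP6V1G3-positive cells also had AGR2 (66.7%, 44.7 to 84.4%). ATP6V1G3 met SPIK5 in only 1 cell at ss11 (rho -0.07) and in 13 cells at ss15 (0.25). C1QTNF12 had the lowest values at ss15, 0.13 to 0.16 with the other members, and -0.08 to 0.07 within VGLL2+ cells. The correlations of the members with the read total of a cell lay between -0.10 and 0.12 over the 3 stages, and those with its number of detected genes between -0.01 and 0.25.

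**Figure D4:**
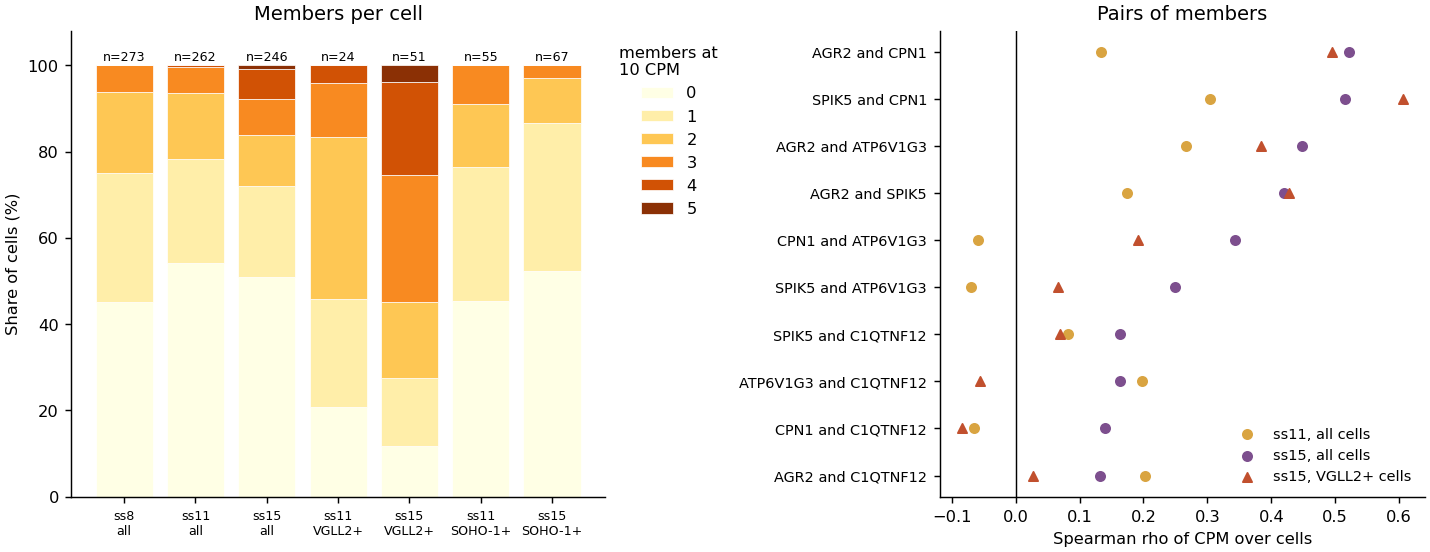
Left, share of cells (%) with 0 to 5 members at 10 CPM or more, for all cells of each stage and for VGLL2+ and SOHO-1+ cells of ss11 and ss15 (n above the bars). Right, Spearman's rho of CPM for the 10 pairs over all cells of ss11 and of ss15 and over VGLL2+ cells of ss15 (51). VGLL2+ cells of ss15 held at least 3 members in 28 of 51 cells, and SPIK5 with CPN1 reached 0.61 in them.

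Genes with a pattern like each member were ranked by the smaller of their Spearman correlations over kept ss11 cells and over kept ss15 cells, among 10417 genes found in at least 5% of the cells of both stages, and only those with a symbol, a small part that came from the study's own gene lists, are named and ranked after the first. The highest of all for AGR2 was VGLL2 (0.45 and 0.52). The members had been chosen on VGLL2, so nothing is read from the place of VGLL2 for any member. Among genes with a symbol, VGLL2 was followed by TSPAN13, a tetraspanin (0.47 and 0.42), and CHST9, a carbohydrate sulfotransferase (0.41 and 0.48). FA2H, which hydroxylates fatty acids, was the highest for both SPIK5 (0.54 and 0.49) and CPN1 (0.33 and 0.52). SPIK5 was next followed by SMAGP, an epithelial membrane glycoprotein (0.44 and 0.51), and KRT7, a keratin of simple epithelia (0.36 and 0.43). CPN1 was next followed by SPIK5 and by CLDN1, a tight-junction claudin (0.29 and 0.49). For ATP6V1G3 the first gene with a symbol was AGR2 (0.27 and 0.45), with 1 gene without a symbol above it, then CHST9 and TRABD2A. For C1QTNF12 the first was NKX2-5, a homeobox gene (0.29 and 0.32), in 23 and 24 cells, then CHST9 and VGLL2 (0.24 and 0.22).

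EGFP reads were not used to choose the members, although the sort itself had gated on EGFP. The reporter contrast is still not independent of that choice, as most VGLL2+ cells of ss11 and ss15 carried EGFP reads. Cells with at least 10 GFP reads for each 1000000 counted reads made up 88.6% of ss8, 52.7% of ss11 and 61.4% of ss15 cells. AGR2 had no read in any of the 31 ss8 cells under that limit, for which the exact upper limit of a share is 11.2%, and all 61 AGR2-positive cells lay in the reporter group. ATP6V1G3 and C1QTNF12 had no read in those 31 cells either, but they were past 10 CPM in only 2.89% and 5.79% of reporter cells, shares under that limit, so a difference was not detectable with 31 cells. CPN1 was at 34.7 and 9.43 CPM, with 51.7% and 25.8% of cells positive, and SPIK5 at 7.37 and 3.86 CPM. At ss8, 4 of the 5 members were at least 2-fold higher in reporter cells on the scale of CPM plus 1, against 2.49% of 7353 measured genes, and 2 of the 5 were themselves measured. The fold of ATP6V1G3, which depends on the added 1 CPM, was 0.95 without its highest cell, and that of CPN1 was 0.53 where the reporter limit was set at 50 in place of 10, down from 1.775.

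All 5 members were at least 2-fold higher in reporter cells at ss11, against 4.21% of 6860 measured genes, and again at ss15, against 3.68% of 6774, with 3 of the 5 measured at each. AGR2 differed most at ss11 (58.99 against 2.04 CPM, log2 4.30, rank 1 among the measured genes) and less at ss15 (81.9 against 21.4 CPM, 1.89). SPIK5 differed by 2.60 and 2.69 log2 units, CPN1 by 1.51 and 1.40, ATP6V1G3 by 1.998 and 2.47, and C1QTNF12 by 2.45 and 3.36. VGLL2, on which the members had been chosen, differed by 4.08 and 2.07, and SOHO-1 by 2.16 and 1.24. Nothing is therefore read from the counts of members. Few neural crest cells were past the GFP limit, 7 of 38 at ss11 and 6 of 23 at ss15, whereas all 24 VGLL2+ cells of ss11 and 45 of 51 of ss15 were past it. The part of this makeup in the reporter differences was not tested.

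**Figure D5:**
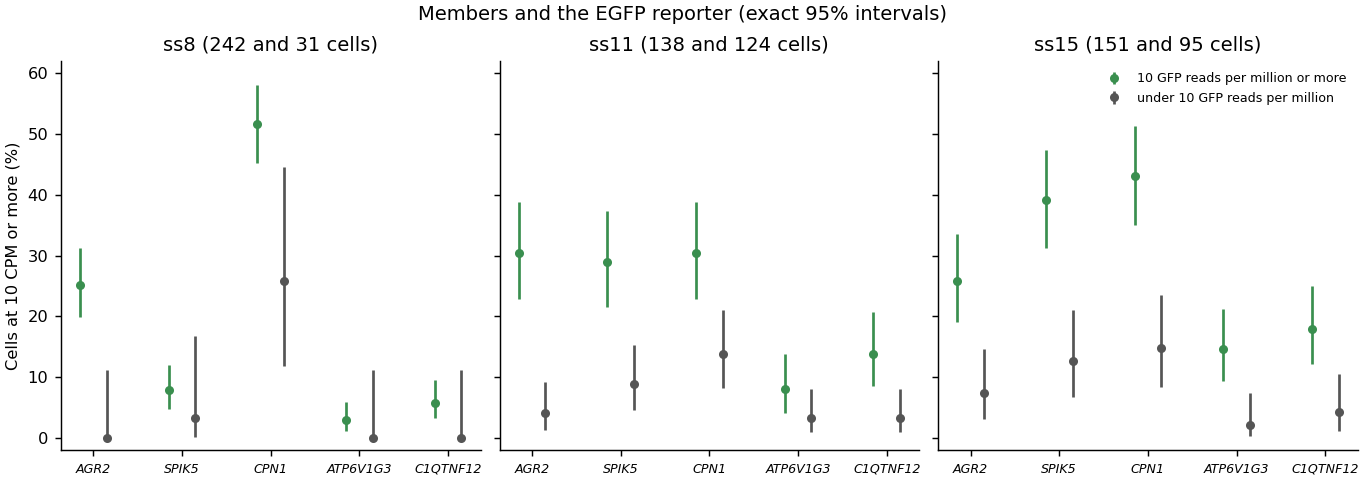
Share of cells (%) with each member at 10 CPM or more among cells with at least 10 GFP reads per 1000000 counted reads (green) and the others (grey), at ss8, ss11 and ss15, with exact binomial 95% intervals. At ss8 no cell of the 31 under the limit had AGR2, ATP6V1G3 or C1QTNF12, and at ss15 CPN1 was found in 65 reporter cells and 14 of the 95 others.

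Other genes of the same roles could be followed only where the study pairs an identifier with a symbol, which held for 34 genes of the 6 lists. Of 29 genes of ER folding and secretion 4 had an identifier and 1 was measured, DERL3, an ER-associated degradation factor, at 44.2 against 16.03 CPM in VGLL2+ and SOHO-1+ cells of ss11 and 39.4 against 7.30 CPM at ss15. SPDEF and BHLHA15, transcription factors of secretory cells, stayed under 1 CPM in both groups at both stages. Of 20 proton-pump subunits, ATP6V1C2 was the only one with an identifier, and it was not measured (3.12 against 1.41 and 10.8 against 1.83 CPM). KAZALD1, with a Kazal domain as SPIK5 has, differed by 1.65 and 1.15 log2 units, and the gene named CPM, a membrane-bound carboxypeptidase, by 1.15 and 1.20. The symbols came from the study's own gene lists, and KAZALD1 stands in its bulk epibranchial list. The genes that could be followed were thus not a free draw from each role, and nothing is read from their direction. Among C1q and TNF-related genes only Cbln2 had an identifier, with 0 reads in either group at ss11.

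The study's bulk epibranchial list held 28 other secreted proteins, KAZALD1 and Cbln2 among them, of which 14 were measured at each stage. That list was made of genes higher in epibranchial than in otic bulk samples, so a higher level in VGLL2+ cells follows from its making. Nothing is read from the counts. At ss11, 9 were at least 2-fold higher in VGLL2+ cells, 2 lower and 3 neither, with a median log2 fold of 1.24 beside 0.04 for all measured genes, of which 7.75% were higher. At ss15, 10 were higher, none lower and 4 neither, with a median of 2.10 beside 0.02 for all measured genes, of which 6.07% were higher. FGF8 (6.07 and 4.29) and WNT11 (4.24 and 4.47), both signalling ligands, and NELL1 (1.83 and 2.51) and GAS6 (1.62 and 1.59), secreted factors, had the largest smaller fold of the 2 stages among those measured at both. WNT9B, a further ligand, stood at 12.2 and 54.1 CPM in VGLL2+ cells with no read in SOHO-1+ cells at either stage. CRHBP, a binding protein of corticotropin-releasing hormone, went the other way at ss11 (-3.33) and differed by 0.62 at ss15. In SOSTDC1 and COL14A1, as in CPN1 and SPIK5, the fold was larger at ss15 (3.26 and 3.40) than at ss11 (1.23 and 0.53), and these were picked out after their values were seen.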

How the data were processed

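Single cells of 3 chick stages were profiled by SmartSeq2. Per the study's methods and processing notes, the authors removed adaptors (cutadapt 2.10), aligned to the galGal6 build extended by GFP (HISAT2 2.2.1, SAMtools 1.10) and obtained gene counts with HTSeq 0.12.4. The deposited values are raw counts per gene and cell, and raw GFP counts per cell, with no molecular identifiers and no strand. Reads of overlapping or near-identical genes may therefore not be told apart. The methods and the series text differ on the sequencer of ss8, which cannot be told apart from stage. A limit of 6% mitochondrial reads used in the study was not applied, as the identifiers of those genes were not used here, and no doublet caller was run on singly sorted cells.

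Here, 858 libraries were joined to 850 cells where a pair correlated above 0.95, and 781 cells with at least 500000 reads and 1000 genes were kept (273 of 280 at ss8, 262 of 284 of ss11 and 246 of the 286 ss15 cells). GFP reads passed 10 per 1000000 in 242, 138 and 151 of them. A group's CPM came from its pooled counts, with exact Poisson intervals, shares of cells at 10 CPM have exact Clopper-Pearson intervals at 95%, and folds used CPM plus 1. With 1 sample per stage no test was run, and called means at least 2-fold. Placodal cells had at least 2 of 3 placodal markers and neural crest cells at least 4 of 6 crest markers at 10 CPM, crest cells being kept apart. The neural crest cells counted were also positive for neither VGLL2 nor SOHO-1. Symbols came from 332 pairs of identifier and symbol in the study's files. These pairs also set which genes could be followed by name. An identifier was found for 30 of 43 markers and 34 of 106 list genes, and only genes with a symbol were named among the nearest. Named genes were the 5 members, VGLL2 and SOHO-1, the 3 genes with a symbol nearest to each member, up to 4 genes of each list with the largest smaller fold, and class markers. Genes outside that rule (SPDEF, BHLHA15, ATP6V1C2, Cbln2, GAS6, CRHBP, SOSTDC1 and COL14A1) were chosen after their values were seen. The members, lists and markers were chosen with earlier results of these data known. Alternatives covered the pseudocount, the scaling (TMM, edgeR 4.0.16, R 4.3.3), thinning, the limits on cells and single cells left out. Python 3.11.15 with numpy 2.4.6, pandas 2.3.3, scipy 1.17.1 and matplotlib 3.10.9 was used. The folds were tested on simulated Poisson counts with no spread between cells beyond counting error. That test does not cover folds that rest on single cells.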

Additional observations from a re-analysis of the deposited data

Results flagged for a closer look

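SPIK5 and CPN1 differed between VGLL2+ and SOHO-1+ cells in opposite directions at the 2 stages. SPIK5 had a log2 fold of -0.85 at ss11 and 2.30 at ss15, and CPN1 had -0.32 and 2.38. The difference between the stages was not tested, since each stage is 1 sample, and the ss11 values of both lay within 2-fold.

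The members also had reads in the 69 cells left out by the limits on reads and genes. Summed over those cells, AGR2 stood at 5.61 CPM, SPIK5 at 146.3 CPM, CPN1 at 19.1 CPM, ATP6V1G3 at 2.94 CPM and C1QTNF12 at 26.2 CPM, with reads of each in 5, 13, 8, 2 and 3 cells.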

How the results depend on the processing

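No paired analysis was possible because the cells carry no replicate numbers that groups share and no test was run. Over 17 alternatives, 430 folds of the members were recomputed. Most of these folds moved away from their main value. This included most of those without the highest cell and most with at least 1000000 reads and 2000 genes per cell. A change of sign was seen in 1 called fold: AGR2 from ss8 to ss15 was -1.55 among placodal cells only. The counts of members at least 2-fold higher changed by over 1.5 times in 4 cases. With 5 CPM added in place of 1, 2 members were higher in reporter cells at ss8 in place of 4. With at least 1000000 reads and 2000 genes per cell, 2 were higher at ss15 than at ss11 in place of 1. Among placodal cells only, 1 was higher from ss8 to ss11 in place of 3, and 2 from ss8 to ss15 in place of 5. Cells with at least 3 members at ss11 fell from 17 to 11 at a limit of 20 CPM and to 10 with the stricter limits on cells, which left 15 in place of 40 at ss15, where fewer cells entered. The share of genes at least 2-fold higher rose, with no filter on low values, from 6.07 to 9.39% for VGLL2+ against SOHO-1+ cells at ss15 and from 0.388 to 2.38% for ss15 against ss11. The 3 members called at ss11 and 4 at ss15 between VGLL2+ and SOHO-1+ cells were 3 and 4 to 5 under the alternatives run. The alternatives without the highest cell of the lower group and with cells past the GFP limit only were chosen after seeing the data.

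Thinned to 500000 reads per cell, ATP6V1G3 was positive in 7, 16 and 24 cells by stage in place of 7, 15 and 24, and C1QTNF12 in 14, 23 and 31 as before.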
